A study of Mus musculus with 12 samples.

Results

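The transcription factors that give pancreatic β-cells their identity were represented by 9 genes: Pdx1, Nkx6-1, Nkx2-2, Neurod1, Mafa, Foxa2, Pax6, Isl1 and Hnf4a. The members were all probe sets that the platform annotation assigns to these genes and to no other. For 8 of the 9 genes there were 18 such probe sets, of 45037 probe sets on the array that were not controls. Mafa is not analysed here. Pax6 had 5 probe sets, Hnf4a 4, Pdx1, Neurod1 and Isl1 2 each, and Nkx6-1, Nkx2-2 and Foxa2 1 each. All 18 passed a filter that asked for a log2 value above 5 on at least 3 of the 12 arrays.

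The study compared wild-type C57BL6 mice (WT) with Sgpp2-/- mice of the same strain (KO), each fed normal or high-fat food, on Affymetrix expression arrays, with 3 arrays in each of the 4 groups. The product of Sgpp2 removes the phosphate from sphingosine-1-phosphate, a signalling lipid, and is located in the endoplasmic reticulum. The series title names pancreatic islets. The labels state neither how the allele was built, nor the age and sex of the mice, nor the length of the diets, nor whether an array holds 1 animal or a pool. The p-values below thus cover the variation among these arrays alone, which may be technical. In whole islet RNA, fewer cells of a type and less RNA per cell cannot be told apart.

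The 9 factors form a network in which most members bind the regulatory DNA of the others and of the insulin gene. Pdx1, Nkx6-1 and Mafa are the members most specific to β-cells among islet endocrine cells, whereas Pax6, Isl1, Neurod1, Nkx2-2 and Foxa2 are active in other islet endocrine cells too. Pdx1, Nkx6-1, Nkx2-2, Pax6 and Isl1 are homeodomain proteins, Neurod1 is a basic helix-loop-helix protein, Foxa2 is a forkhead protein that opens chromatin, and Hnf4a is a nuclear receptor. Loss of Pdx1, Nkx6-1 or Neurod1 from β-cells is known to impair insulin production or secretion.

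The targeted gene separated the genotypes. Sgpp2 (1457867_at) lay between 11.46 and 11.63 on the WT arrays and at 11.17 or below on the KO arrays, a log2 difference of -0.46 over both diets (SE 0.05, limma adjusted p = 0.00327). Whether its probe set lies inside the deleted part is not given, so this value does not measure the loss of the enzyme. The tissue named in the title was borne out by islet transcripts, with Ins2 between 14.36 and 14.71, Iapp between 14.86 and 15.04 and Gcg between 14.31 and 14.55 on all arrays. Acinar enzymes were about as bright, with means over all arrays from 13.76 (Cel) to 14.63 (Ctrb1), against 14.57 for Ins2 and 14.40 for Gcg. The mean log2 level of 11 acinar markers lay between 12.22 and 12.92. That mean includes the transcription factors Ptf1a (6.43) and Rbpjl (7.20), which lower it. The array medians ranged from 7.0 to 7.13.

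The promoters of the 3 factors with a probe set that differed between the genotypes are shown for the motifs that factors of this network bind. The sequences are RefSeq windows on GRCm38.p6, 5′ to 3′ on the strand of the gene, ending before the first annotated base of the gene. Capitals mark every match to 5 motifs searched on both strands: the E-box CANNTG, which basic helix-loop-helix factors such as Neurod1 bind, the homeodomain core TAAT, the forkhead core TGTTTA, the NK2 core TNAAGTG and the HNF4 site CAAAGTCCA. For Pdx1 the window is chr5:147269847-147270096 (plus strand), for Isl1 chr13:116309689-116309938 (minus strand), and for Hnf4a chr2:163506607-163506810 (plus strand). The Hnf4a window is the upstream of 2 in the table, which lie 40298 bases apart; an upstream promoter of Hnf4a is known to be the main one in islets.
Pdx1: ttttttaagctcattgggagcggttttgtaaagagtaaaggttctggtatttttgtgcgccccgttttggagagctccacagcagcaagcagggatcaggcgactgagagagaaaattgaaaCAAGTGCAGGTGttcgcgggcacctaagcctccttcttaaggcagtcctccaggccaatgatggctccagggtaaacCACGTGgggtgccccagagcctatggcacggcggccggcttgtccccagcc
Isl1: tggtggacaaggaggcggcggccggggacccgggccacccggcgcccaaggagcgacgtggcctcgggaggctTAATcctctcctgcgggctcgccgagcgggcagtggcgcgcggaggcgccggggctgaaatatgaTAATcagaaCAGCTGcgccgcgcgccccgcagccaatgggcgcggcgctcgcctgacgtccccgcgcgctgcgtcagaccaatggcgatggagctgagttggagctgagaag
Hnf4a: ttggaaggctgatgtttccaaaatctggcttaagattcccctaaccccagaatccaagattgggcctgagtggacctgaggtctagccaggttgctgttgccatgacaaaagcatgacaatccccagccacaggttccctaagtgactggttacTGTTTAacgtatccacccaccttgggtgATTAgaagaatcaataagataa
Pdx1 had 3 E-boxes, the first and the second of them directly adjacent, and no match to the other motifs. Isl1 had 1 E-box and 2 homeodomain cores, and Hnf4a had 1 forkhead core and 1 homeodomain core. Such matches were common among the 32851 promoter windows of the table. At 250 bases, 66.2% of windows held an E-box and 54.9% a homeodomain core. At the 204 bases of the Hnf4a window, 10.4% held the forkhead core and 50.6% the homeodomain core. A match describes the letters of the window and is not a measured binding site. Promoter windows were matched for 7 of the 8 factors.

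With each gene read from its brightest probe set (the one with the highest mean over all arrays), the factors differed between KO and WT islets by at most 0.36 on the log2 scale when averaged over the diets. None of the 8 genes passed the test in any of 7 comparisons (limma, adjusted p under 0.05 over 15237 genes). Averaged over both diets, 5 of the 8 were lower and 3 higher in KO, with a median log2 difference of -0.05 against -0.04 over all genes tested. At an unadjusted p under 0.05 there were 3 of the 8, against 28.6% of all genes, and 0 of the 8 had all 6 KO arrays on 1 side of all 6 WT arrays, against 4.99% of all genes. The background of calls in this comparison was 963 genes, which is 6.32% of those tested. The 3 genes were Nkx6-1, Foxa2 and Neurod1, and each had an adjusted p just above the threshold.

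Nkx6-1, which represses the genes of other endocrine cell types in β-cells, had the largest difference of the 8 (1425828_at). On the normal diet it read 11.90, 11.64 and 11.67 in WT and 11.33, 11.49 and 11.20 in KO. Under high-fat feeding it read 11.65, 11.38 and 11.77 in WT and 11.42, 11.43 and 10.96 in KO. The groups did not overlap on the normal diet and overlapped on the high-fat diet, where the third KO array was the lowest of all 12 and the second WT array lay below 2 of the KO arrays. Averaged over both diets the KO level was 77.8% of WT, a log2 difference of -0.36 (SE 0.10, adjusted p = 0.0607 by limma). Within the diets the differences were -0.39 (adjusted p = 0.168) and -0.33 (adjusted p = 0.369).

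Foxa2, the forkhead factor that acts upstream of Pdx1, showed its tightest groups on the normal diet (1422833_at). There it read 11.24, 11.21 and 11.23 in WT and 11.02, 11.01 and 11.00 in KO. On the high-fat diet it read 11.34, 11.13 and 11.61 in WT and 11.07, 11.14 and 10.97 in KO, with the second WT array just below the second KO array. The WT arrays on the high-fat diet were the most spread of the 4 groups, with an SD of 0.24 (n = 3) against 0.02 for WT on the normal diet. The averaged difference was -0.26 (SE 0.07, limma adjusted p = 0.0599), or 83.5% of WT.

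Neurod1, which binds E-boxes of the insulin promoter, was the one factor of these 3 that lay higher in KO (1426412_at). It read 12.58, 12.66 and 12.67 in WT and 12.82, 12.71 and 12.82 in KO on the normal diet. The high-fat arrays read 12.40, 12.60 and 12.55 in WT and 12.67, 12.76 and 12.79 in KO. The genotypes did not overlap within either diet, and the lowest KO array overall lay just below the highest WT array. The averaged log2 difference was 0.18 (SE 0.05, limma adjusted p = 0.0625), which puts KO at 1.14 times the WT level. The second Neurod1 probe set (1426413_at) differed by 0.06 (adjusted p = 0.566 over all probe sets), with overlapping groups.

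The side of the threshold for these 3 genes depended on the processing and on the second WT array of the high-fat diet. Without it, all 3 were called, Nkx6-1 at -0.42 (adjusted p = 0.0278), Foxa2 at -0.32 (adjusted p = 0.0138) and Neurod1 at 0.20 (adjusted p = 0.0342), and the count over all genes was 2500 in place of 963. With KO arrays of the same number as a random block their adjusted p-values were 0.0945, 0.101 and 0.109. The sign of all 3 was the same under every alternative run.

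**Figure D1:**
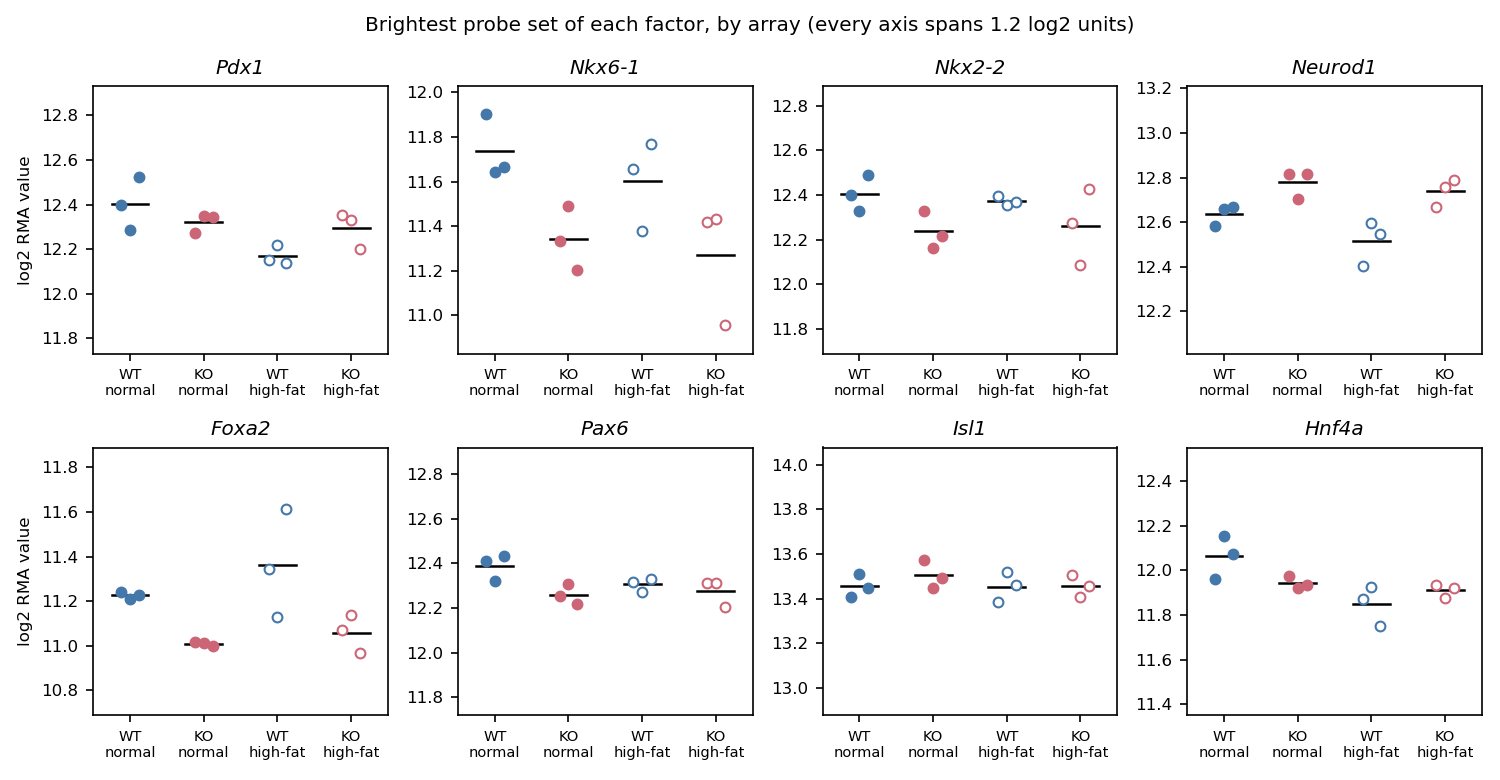
The log2 RMA value of the brightest probe set of each of the 8 factors is plotted for every array, in blue for WT and red for KO, filled for the normal and open for the high-fat diet, with a bar at the group mean (3 arrays per group). Every axis spans 1.2 log2 units, so that the KO points of Nkx6-1 and Foxa2 sit mostly below and those of Neurod1 above WT, whereas the 12 Isl1 points lie within 0.19 of each other.

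The other 5 factors showed smaller genotype differences at their brightest probe sets. Nkx2-2, which keeps endocrine precursors on the β-cell path, had group means of 12.41 ± 0.08 (SD, n = 3, as for the means below) in WT and 12.24 ± 0.09 in KO on the normal diet. Its high-fat means were 12.37 ± 0.02 and 12.26 ± 0.17. The averaged difference was -0.14 (SE 0.06, limma adjusted p = 0.18), and the groups overlapped on both diets. On the normal diet the first KO array lay just above the second WT array, and on the high-fat diet the third KO array was the second highest Nkx2-2 value of all. Pax6, a paired-box factor needed for islet hormone genes, read 12.39 ± 0.06 and 12.26 ± 0.04 on the normal diet, and 12.31 ± 0.03 and 12.28 ± 0.06 on the high-fat diet. Its normal-diet groups did not overlap, but the difference of -0.13 had an adjusted p of 0.278 by limma. Pdx1, Isl1 and Hnf4a differed between the genotypes by 0.02, 0.03 and -0.03 at these probe sets when averaged over the diets, with limma adjusted p-values of 0.816, 0.761 and 0.756. The 95% intervals of these 3 differences had their outermost bounds at -0.14 and 0.14.

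Separation of the genotypes within a diet was not rare among all genes, and the factors are read against that background. On the normal diet the genotypes did not overlap for Nkx6-1, Neurod1, Foxa2 and Pax6, so 4 of the 8, against 34.3% of the 15237 genes, while 0.84% of genes (128) passed the adjusted threshold. On the high-fat diet it was Neurod1 alone, 1 of the 8 against 14.8%, while 0.0263% of genes (4) passed. At an unadjusted p under 0.05 by limma there were 1 and 3 of the 8 factors on the normal and the high-fat diet, against 22.1% and 13.4% of all genes.

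No diet difference of a factor passed the test. At their brightest probe sets, Pdx1 and Hnf4a were lower in WT on the high-fat diet without overlap between the groups, and not in KO. Pdx1 (1422174_at), the factor that switches on the insulin gene and is needed for the pancreas to form, read 12.40, 12.29 and 12.52 in WT on the normal diet and 12.15, 12.22 and 12.14 on the high-fat diet. All 3 high-fat arrays lay below all 3 normal-diet arrays. The difference was -0.23 (SE 0.08, limma adjusted p = 0.288). In KO, Pdx1 read 12.27, 12.35 and 12.35 on the normal and 12.35, 12.33 and 12.20 on the high-fat diet, a difference of -0.03, with the groups overlapping. At the other Pdx1 probe set, 1422173_at, the diets overlapped in both genotypes. Its diet difference was -0.28 in WT and 0.14 in KO (limma adjusted p = 0.439 and 0.845 over all probe sets).

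Hnf4a (1427001_s_at) gave 11.96, 12.15 and 12.08 in WT on the normal diet and 11.87, 11.92 and 11.75 on the high-fat diet, again without overlap. This difference was -0.22 (SE 0.07, adjusted p = 0.307 by limma). In KO it was -0.03, from 11.98, 11.92 and 11.94 to 11.94, 11.88 and 11.92. The order of the 4 group means was the same for both genes: WT on the normal diet was highest, KO on the normal diet next, KO on the high-fat diet after it, and WT on the high-fat diet lowest. No neighbours in that order were separated on all arrays for either gene. Whether the diet acted differently in the 2 genotypes was tested as an interaction, which was 0.21 for Pdx1 (SE 0.11, adjusted p = 0.988) and 0.18 for Hnf4a (SE 0.11, adjusted p = 0.99).

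In WT, the same 2 of the 8 factors did not overlap between the diets, against 15.8% of all genes, and had an unadjusted p under 0.05, against 11.1%. Limma called 0.0788% of genes (12) there. In KO, 0 of the 8 did not overlap, against 13% of all genes, 0% of genes were called by limma, and 0 of the 8 had an unadjusted p under 0.05, against 7.7% of all genes (1173). The largest diet difference of a factor in KO was -0.07, for Nkx6-1. Averaged over the genotypes, Pdx1 (-0.13) and Hnf4a (-0.12) were the 2 factors with an unadjusted p under 0.05, against 13.6% of all genes. None of the 8 was called by limma, against 0.197% of all genes (30). For the interaction, 0 of the 8 were called or had an unadjusted p under 0.05, against 0% called by limma and 4.97% (758 genes) with an unadjusted p under 0.05.

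Some of the remaining probe sets of the same genes differed from the brightest, and 3 of the 18 passed the test between the genotypes. With every probe set tested on its own and p-values adjusted over 35426 probe sets, Isl1 (1422720_at) and Pdx1 (1422173_at) fell and Hnf4a (1427000_at) rose in KO averaged over both diets. The share was 3 of 18, or 16.7%, against a background of 8.39% (2972 probe sets). None of the 3 was the brightest probe set of its gene. Of the 18, 12 were lower and 6 higher in KO, while 58.6% of all probe sets were lower. Their median was -0.05 against -0.04 over all probe sets.

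**Figure D2:**
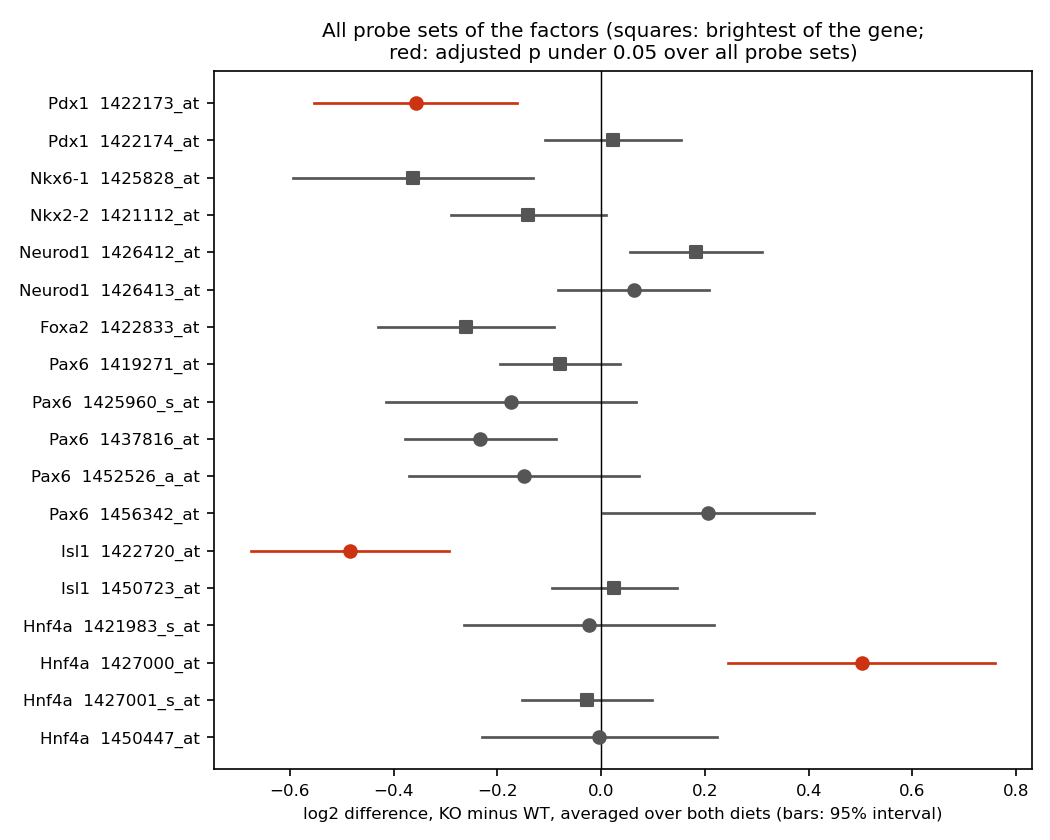
Points give the log2 difference between KO and WT averaged over both diets for each of the 18 probe sets, with 95% intervals from the limma fit to all probe sets; squares mark the brightest probe set of a gene and red marks an adjusted p under 0.05. The red points are the dimmer probe sets of Pdx1 (-0.36) and Isl1 (-0.48) and 1 dim probe set of Hnf4a (0.50), while the squares of these genes lie within 0.03 of 0.

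Isl1, a LIM-homeodomain factor needed for the maturation of all islet endocrine cells, gave the clearest case. At 1422720_at it read 11.65, 11.81 and 11.70 in WT and 11.47, 11.17 and 11.14 in KO on the normal diet. The high-fat arrays gave 11.70, 11.79 and 12.09 in WT and 11.40, 11.42 and 11.22 in KO. All 6 KO arrays lay below all 6 WT arrays. The difference was -0.48 (SE 0.09, limma adjusted p = 0.00895), which puts KO at 71.5% of WT. It was of like size on each diet, -0.46 (adjusted p = 0.0824) and -0.51 (adjusted p = 0.0908), neither of which passed alone. The averaged call held in all 19 alternatives, with adjusted p-values between 0.00224 and 0.0273. At the brightest Isl1 probe set (1450723_at) the WT arrays read 13.41, 13.51 and 13.45, then 13.38, 13.52 and 13.46, and the KO arrays 13.57, 13.45 and 13.49, then 13.51, 13.41 and 13.46, with the normal diet given first. There the genotypes overlapped fully, and the 95% interval of the difference ran from -0.09 to 0.15.

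Pdx1 fell at 1422173_at when averaged over both diets. The WT arrays read 9.49, 9.15 and 9.59 and the KO arrays 8.80, 8.99 and 8.72 on the normal diet, without overlap, a difference of -0.57 (SE 0.13, limma adjusted p = 0.0531). The high-fat arrays read 9.21, 8.97 and 9.21 against 9.06, 9.02 and 8.87, with overlap and a difference of -0.15 (adjusted p = 0.617). The interaction was 0.42 (SE 0.18) with an adjusted p of 0.988, so the 2 diets were not shown to differ. Averaged, Pdx1 was at 78.0% of WT, a log2 difference of -0.36 (SE 0.09, limma adjusted p = 0.0331). This call was lost with KO arrays of the same number as a random block (adjusted p = 0.0515), with the replicate number as a fixed block (adjusted p = 0.0584), under both other scalings and without any 1 of 8 of the 12 arrays. It held in 7 of 19 alternatives, with adjusted p-values between 0.0159 and 0.0853.

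Hnf4a rose at 1427000_at, a dim probe set. On the normal diet it read 7.41, 7.47 and 7.56 in WT and 8.0, 7.64 and 7.71 in KO, and on the high-fat diet 6.51, 7.06 and 7.01 in WT and 7.84, 7.53 and 7.31 in KO. The genotypes did not overlap within either diet, but the high-fat KO arrays overlapped the normal-diet WT arrays. The averaged difference was 0.50 (SE 0.12, limma adjusted p = 0.0262), or 1.42 times WT, with 0.30 on the normal (adjusted p = 0.315) and 0.70 under the high-fat diet (adjusted p = 0.0878). In WT the diet difference was -0.62 (SE 0.17, limma adjusted p = 0.22), without overlap, and in KO it was -0.22. The genotype call was lost with the replicate number as a block (adjusted p = 0.0537) and without WT array 1, KO array 1 or KO array 3 of the normal diet, with the largest adjusted p at 0.0672 over 19 alternatives. The other Hnf4a probe sets, 1421983_s_at and 1450447_at, were near the filter with means of 5.40 and 5.52. They differed between the genotypes by -0.02 and -0.00 averaged over both diets. At 1421983_s_at this average joined -0.29 on the normal and 0.25 on the high-fat diet (limma adjusted p = 0.302 and 0.486). Its diet difference in WT was -0.46 without overlap (adjusted p = 0.308), and its interaction was 0.54 (adjusted p = 0.982).

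Pax6 had 4 probe sets besides its brightest. Its probe set 1437816_at came nearest to the threshold, with means of 8.85 ± 0.05 in WT and 8.63 ± 0.12 in KO on the normal diet and 8.79 ± 0.13 and 8.54 ± 0.06 on the high-fat diet. The averaged difference was -0.23 (SE 0.07, limma adjusted p = 0.052). Probe sets 1425960_s_at and 1452526_a_at differed by -0.17 and -0.15 (adjusted p = 0.322 and 0.36), and the dimmest, 1456342_at, by 0.21 (adjusted p = 0.173). On the normal diet 1425960_s_at and 1452526_a_at were lower in KO without overlap (-0.36 and -0.33), and on the high-fat diet they differed by 0.02 and 0.03. At 1452526_a_at the diet difference in WT was -0.41 without overlap (limma adjusted p = 0.319). So averaged over both diets 4 of the 5 Pax6 probe sets were lower in KO and 1 was higher, and 0 were called by limma. Within single diets none of the 18 probe sets was called in any comparison between genotypes or diets, at backgrounds of 1.34% (normal diet) and 0.271% (high-fat diet) for the genotype and 0.0508% (WT) and 0% (KO) for the diet. In the same order, 6, 6, 7 and 0 of the 18 had an unadjusted p under 0.05 by limma, which is 33.3%, 33.3%, 38.9% and 0%, against 21%, 14.8%, 11.2% and 8.4% of all probe sets. Probe sets of 1 gene are not independent, so these shares do not test the factors as a set. The 7 for the diet in WT all belonged to Pdx1, Pax6 and Hnf4a. At 1 probe set per gene the counts were 1, 3, 2 and 0 of the 8 genes. For the diet averaged over the genotypes and for the interaction, none of the 18 was called against 0.178% and 0% of all probe sets, and 2 of the 18 (11.1%) had an unadjusted p under 0.05 in each, against 13.9% and 4.99% of all probe sets.

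Because probe sets of 1 gene disagreed, the gap between the brightest and each other probe set was taken on every array and tested between the genotypes, a test chosen after the disagreement had been seen. Of 10 such pairs from 5 factors, 4 were called for KO against WT averaged over both diets (limma on 13450 pairs of 7418 genes). The background was 21.5% (2888 pairs), so a gap that differs between the genotypes was common on these arrays. The Isl1 gap was 1.67 in WT (1.37 to 1.76 over 6 arrays) and 2.18 in KO (1.99 to 2.36), without overlap, a difference of 0.51 (SE 0.08, adjusted p = 0.00212). It was called on the normal diet (adjusted p = 0.0278) and under high-fat feeding (adjusted p = 0.0318), where 7.05% and 5.23% of pairs were called; these calls held in 11 and 9 of 16 alternatives. The Pdx1 gap widened by 0.38 (SE 0.08, limma adjusted p = 0.00727), with WT between 2.91 and 3.25 and KO between 3.30 and 3.62. The gap between Hnf4a 1427001_s_at and 1427000_at changed by -0.53 (SE 0.12, adjusted p = 0.0104). The fourth pair, Pax6 1419271_at and 1456342_at, changed by -0.29 (adjusted p = 0.0492) and was called in 2 of the 16 alternatives. For these genes, a gene-level value therefore depends on the probe set that is read; which transcripts or parts of a transcript each probe set covers was not analysed here.

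**Figure D3:**
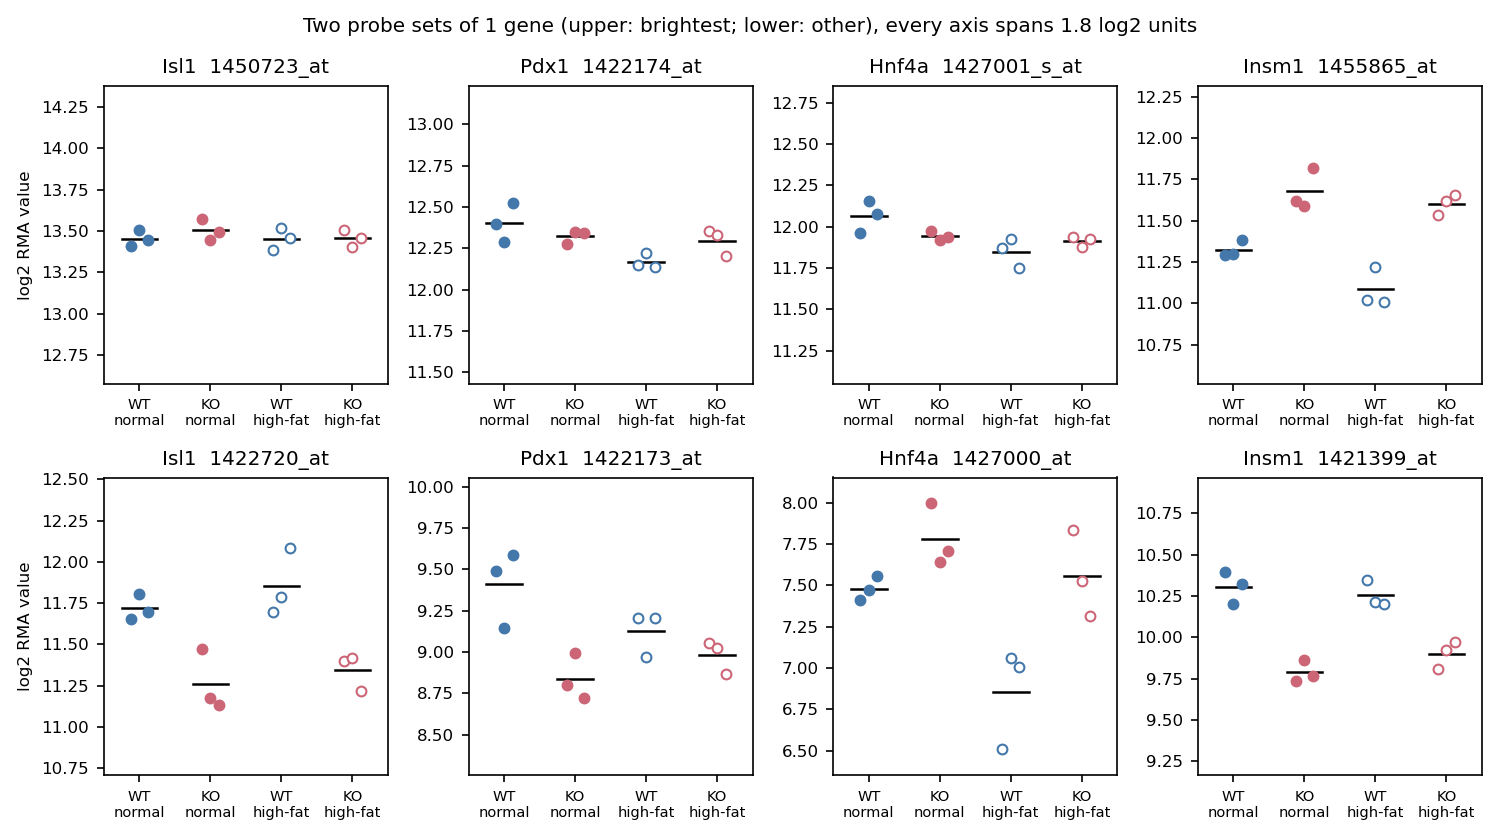
Log2 RMA values by array are shown for the brightest (upper row) and another probe set (lower row) of Isl1, Pdx1, Hnf4a and, from the list of other islet factors, Insm1; colours mark the genotype (blue WT, red KO) and fills the diet (filled normal, open high-fat), bars are means of 3 arrays, and every axis spans 1.8 log2 units. In the lower row KO lies below WT for Isl1, with 71.5% of the WT level, whereas the upper Isl1 panel shows no separation; for Insm1 the genotypes separate in both rows and in opposite directions.

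Around the 9 factors, 27 of 35 other islet and endocrine transcription factors could be tested. In KO averaged over both diets 1 of them was called, Insm1, and 0 fell, so 1 of 27 against the 6.32% of all genes called, with 13 higher and 14 lower and a median of -0.02 against -0.04 over all genes. Insm1, a zinc-finger factor needed to form endocrine cells, rose by 0.44 (SE 0.06, limma adjusted p = 0.00689) at 1455865_at. It read 11.29, 11.30 and 11.39 in WT and 11.62, 11.59 and 11.82 in KO on the normal diet, and 11.02, 11.22 and 11.01 in WT and 11.54, 11.62 and 11.66 in KO on the high-fat diet. All 6 KO arrays were above all 6 WT arrays. Its second probe set, 1421399_at, went the other way by nearly the same amount, -0.44 (SE 0.06, adjusted p = 0.00358 over all probe sets), again without overlap. The WT arrays there read 10.40, 10.20 and 10.32, then 10.35, 10.22 and 10.20, and the KO arrays 9.74, 9.86 and 9.76, then 9.81, 9.92 and 9.97, with the normal diet first. The Insm1 gap differed by 0.87 (SE 0.08, limma adjusted p = 0.000266), so no direction can be given for the gene as a whole. Ldb1, the cofactor through which Isl1 acts, differed by -0.49 (SE 0.13) with a limma adjusted p of 0.0536. With every probe set tested on its own Ldb1 was called (adjusted p = 0.0446), as were 8.39% of all probe sets. Gata6, St18, Rfx3 and Hhex had values of -0.33, 0.29, 0.32 and -0.28 with adjusted p-values between 0.0576 and 0.076. The median size of difference regardless of sign in this list was 0.24, against 0.11 for the 8 factors and 0.12 for all genes. The SEs of these differences ran from 0.05 to 0.21 in this list and from 0.05 to 0.10 for the 8 factors. The part of the SEs in the wider spread was not tested. On single diets 0 of the 27 were called by limma at 1 probe set per gene. The smallest adjusted p was 0.0781 on the normal diet and 0.0802 on the high-fat diet. With every probe set tested on its own, limma called Insm1 1421399_at on the normal diet (-0.52, adjusted p = 0.0265). It called Insm1 1455865_at on the high-fat diet (0.52, adjusted p = 0.0472). Of all probe sets, 1.34% and 0.271% were called there.

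**Figure D4:**
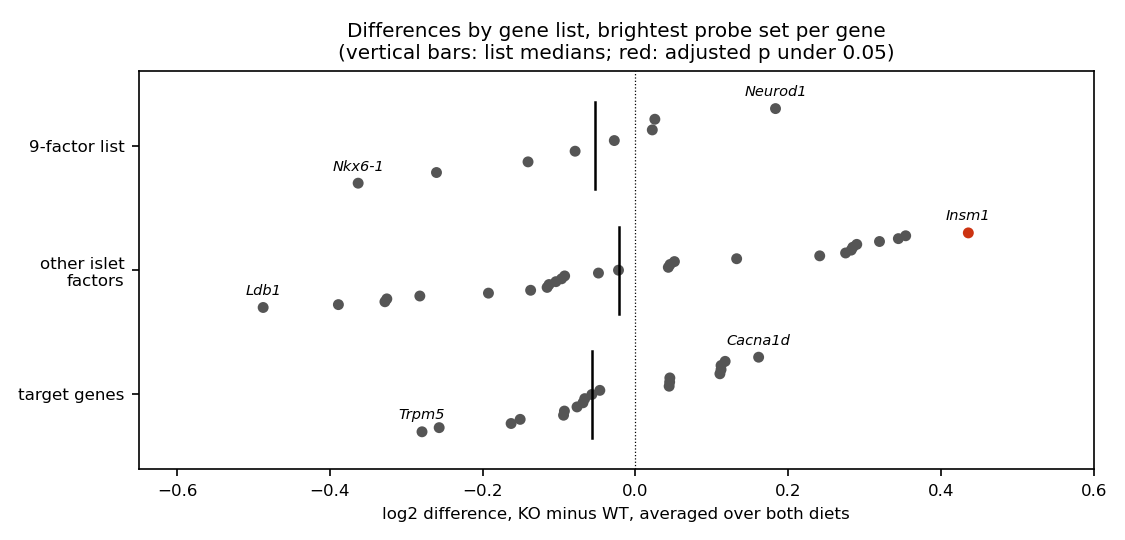
Each point is 1 gene, placed by the log2 difference between KO and WT averaged over both diets at its brightest probe set, for the 8 factors measured, 27 other islet factors and 19 target genes; bars are list medians and red marks an adjusted p under 0.05. The medians of the 3 lists lie between -0.06 and -0.02, and the other islet factors spread more widely than the 8 factors, with Insm1 (0.44) the only red point.

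Genes that these factors are known to activate in β-cells were not called between the genotypes or the diets. Of 24 target genes listed, 19 were tested, and limma called 0 of them in any of the 7 comparisons. Of all genes, 6.32% were called for the genotype averaged over both diets and at most 0.84% in any other comparison. In KO averaged over both diets 11 were lower and 8 higher, with a median of -0.06 against -0.04 over all genes. Ins2, the insulin gene measured here, differed by -0.09 (SE 0.07, adjusted p = 0.381), and Ins1 is not analysed here. Abcc8, the sulfonylurea receptor subunit of the ATP-sensitive potassium channel, read 13.70, 13.56 and 13.66 in WT and 13.33, 13.43 and 13.33 in KO on the normal diet. On the high-fat diet it read 13.70, 13.36 and 13.84 in WT and 13.50, 13.53 and 13.16 in KO. The normal-diet groups did not overlap and the high-fat groups did, and the averaged difference was -0.26 (SE 0.09, limma adjusted p = 0.0996). Cacna1d, a calcium channel subunit, had the smallest adjusted p of the list, 0.0888, with a difference of 0.16. Gjd2, G6pc2 and Pcsk1 followed with 0.11, 0.12 and -0.15 and adjusted p-values of 0.126, 0.157 and 0.162.

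Markers of other cells of the islet preparation differed with the genotype in part. Of all genes, 6.32% were called and 40.5% lay higher in KO averaged over both diets, with a median difference of -0.04. All 11 acinar markers were higher in KO averaged over both diets, with a median of 0.12, and 0 of the 11 were called by limma. Their mean log2 level was 12.53 in WT and 12.80 in KO on the normal diet, and 12.54 in both on the high-fat diet. The 7 endothelial markers were all lower in KO, with a median of -0.21, and Pecam1 (-0.50, adjusted p = 0.0318) and Kdr (-0.23, adjusted p = 0.0448) were called. Their mean levels ran from 9.74 to 9.99 on the WT arrays and from 9.56 to 9.82 on the KO arrays. Of the 7 stromal markers 4 were higher and 3 lower in KO, with a median of 0.03, and Pdgfrb was called (0.34, limma adjusted p = 0.0299). Their mean levels ran from 8.72 to 9.55 on the WT arrays and from 8.94 to 9.40 on the KO arrays. All 4 delta-cell markers were lower, with a median of -0.19 and 0 called, and their mean level ran from 10.28 to 10.64 in WT and from 10.18 to 10.46 in KO. Of 5 alpha-cell markers 2 were higher and 3 lower, from -0.33 to 0.30, with a median of -0.02 and 0 called. Markers of PP cells, duct, macrophages, T and B cells, Schwann cells, and liver and fat went both ways, with 0 called. The 8 β-cell markers, of which Pdx1 and Nkx6-1 are themselves among the factors, had a median of -0.05, with mean levels of 13.51 to 13.63 in WT and 13.41 to 13.58 in KO. Their part in the differences of Nkx6-1, Foxa2, Neurod1, Isl1, Pdx1 and Hnf4a was not tested.

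Across the 12 arrays some factors followed each other at their brightest probe sets, given here as a description of arrays that share the 4 groups. Nkx6-1 went with Pax6 (Pearson r = 0.86, Spearman rho = 0.95) and Foxa2 (0.75 and 0.89) and against Neurod1 (-0.69 and -0.75). After the group means were removed these Pearson values were 0.81, 0.70 and -0.65. The third KO array of the high-fat diet was the lowest of all 12 for Nkx6-1, Pax6 and Foxa2. Pdx1 and Hnf4a had r = 0.57, which was -0.12 within the groups. Among all 15236 other genes tested, the patterns most like Nkx6-1 were those of Capns1 and Arrdc1 (both r = 0.98), and the most like Foxa2 were Sptan1 and Nelfa (both r = 0.98). For Neurod1 they were Tmem215 (0.97) and Abi1 (0.96), for Pax6 Abca3 (0.98) and Lias (0.97), and for Isl1 Sirt1 (0.94) and Olfm3 (0.92). For Nkx2-2 they were Bcl7a (0.93) and Gm31024 (0.92), for Hnf4a 6430571L13Rik (0.92) and Sephs1 (0.90), and for Pdx1 Efcab15 (0.90) and Ube2a (0.89).

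The genes lie apart from the deleted gene. Sgpp2 is on chromosome 1, and none of the 8 factors is on that chromosome. Nkx2-2, Neurod1, Foxa2, Pax6 and Hnf4a, so 5 of the 8, are on chromosome 2, Pdx1 and Nkx6-1 are on chromosome 5 and Isl1 is on chromosome 13. Foxa2 and Nkx2-2 are separated by 1 protein-coding gene, Pax1, and differed between the genotypes by -0.26 and -0.14. Insm1 lies 4 protein-coding genes from Nkx2-2.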

How the data were processed

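RNA was extracted with Trizol and 4 µg of it labelled, per the labels' protocols. The authors deposited log2 values summarised per probe set by RMA; besides RMA, Partek 6.6 appears among the submitters' processing notes, and no source used here names their probe annotation. RMA brings the distributions of the arrays close together, which can hide part of a shift of most genes, and it understates differences of dim probe sets; array medians of the deposited values still ranged from 7.0 to 7.13, and other scalings were therefore tried. The number of arrays limits the precision: the median SE of a difference between 2 groups of 3 was 0.12.

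Of 45101 probe sets, 64 were controls and 34945 had 1 gene symbol in the platform annotation, of which 34741 matched RefSeq's gene table (GRCm38.p6). From 18193 genes, each read from its brightest probe set, 15237 exceeded 5 (log2) on 3 or more arrays and were tested. A linear model with a coefficient for each group was fitted to the 12 arrays with limma 3.58.1 (R 4.3.3; 8 residual degrees of freedom, 11.1 after moderation). Tests were two-sided, adjusted by Benjamini-Hochberg over all genes or probe sets tested, with a threshold of 0.05, and the script was tested on simulated data. Plots were made in Python 3.11.15 (matplotlib 3.10.9).

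The members and lists were chosen with earlier results of these data known. The naming rule took all probe sets of the factors, up to 6 genes of each other list per comparison by p, Ins1 and Ins2 always, and the 2 genes most like each factor. Same-numbered KO arrays, called KO pairs below, had deviations from their group means with r = 0.29, 0.38 and 0.14 between the diets. The labels do not state a pairing. Arrays of unlike number were not compared, so these values cannot show that the arrays are paired. In no other pair of groups were all 3 values above 0.1, but single values were larger in size (-0.51 for array 2 of high-fat WT and KO). The random block was added after the data had been seen. The array labels carry the same date, so no batch could be tested.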

Additional observations from a re-analysis of the deposited data

How the results depend on the processing

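For KO against WT averaged over both diets, 0 of the 8 factors were called. With each array centred on its median 1 was called (Neurod1, 0.24, limma adjusted p = 0.0326), and 3 with an intensity trend and robust moderation (Nkx6-1, Foxa2 and Neurod1). The calls over all genes in these runs were 1087 and 1431, in place of 963. With every probe set on its own 3 probe sets were called, and between 0 and 3 factors when 1 array was left out. Of the 18 probe sets, 3 were called; 6 were with a filter at 6 and 6 with trend and robust moderation, 1 with the replicate number as a block (Isl1, adjusted p = 0.0242), 2 with KO pairs as a random block, and between 1 and 7 without 1 array. Isl1 1422720_at was called in all 19 alternatives, Hnf4a 1427000_at in 15 and Pdx1 1422173_at in 7; both of these were lost under the replicate block (adjusted p = 0.0537 and 0.0584), Pdx1 also with KO pairs as a random block, under both scalings and without any 1 of 8 arrays, and Hnf4a also without WT replicate 1 or KO replicate 1 or 3 of the normal diet. On the normal diet 0 of the 18 were called, but 1 of those that passed the filter at 6. There 2 were called with trend and robust moderation, and between 0 and 1 without 1 array. On the high-fat diet 0 became 1 with trend and robust moderation, and between 0 and 1 without 1 array. Insm1 at the mean of its probe sets was -0.083 on the normal diet (adjusted p = 0.499) and -0.00079 averaged (adjusted p = 0.993). The replicate block changed no other call of a factor.

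Over all genes the KO count on the normal diet was 128 (73 higher, 55 lower), but 238 with median centring (194 and 44), 127 with cyclic loess (97 and 30), 69 with the mean of probe sets, 336 with trend and robust moderation, 9 with the replicate block and 2 to 223 without 1 array. Averaged it was 963 (503 and 460), 1087 with median centring (878 and 209), 852 with cyclic loess (606 and 246) and 1431 with trend and robust moderation (745 and 686). It was 524 with the replicate block, 352 with KO pairs as a random block and 255 to 2500 without 1 array. On the high-fat diet 4 became 8, 63 and 2 with median centring, trend and robust moderation and the replicate block, and 0 to 272 without 1 array (272 without WT replicate 2 of that diet). For the diet, 12 in WT became 24 and 0 with trend and robust moderation and the replicate block, 0 in KO became 10 with KO pairs as a random block, and 30 averaged became 0 and 84 with the replicate block and the random block; without 1 array these 3 counts were 0 to 11, 0, and 0 to 30.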
